A study of Mus musculus with 10 samples.

Results

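The widest open chromatin regions of group 2 innate lymphoid cells (ILC2s) were examined, defined as regions of the deposited count table whose end lies at least 900 bp beyond their start and which hold at least 1 count. This rule chose 1645 regions of the 49981 with a count, which is 3.29% of the regions and 6.78% of the bases they cover. By the position of their centre, 418 were promoter regions and 1227 were distal. Members were selected on width, which rests on peaks called from the same libraries. The ILC2s came from male C57BL/6 mice aged 6 weeks and from 5 tissues, namely lung, pancreas, bone marrow (BM), small intestine (SI), and large intestine (LI), with 2 libraries of 50000 sorted cells per tissue. No group carried an added allele or treatment. Each intestinal sort drew on 10 mice and each of the other sorts on 16, so the spread between 2 libraries is that between pools. BM ILC2s were gated by ST2 and CD25, those of LI, lung, and pancreas by CD45, CD127, ST2, and CD25, and those of SI by CD45, CD127, Thy1, and KLRG1, and the BM cells were sorted on another machine than those of the other tissues. LI, lung, and pancreas thus shared gate and sorter, while tissue cannot be told apart from gate and sorter in comparisons with BM, or from gate in comparisons with SI. The isolation of cells differed as well. The paper describes flushing of the bones for BM, unlike enzyme digestions for lung and pancreas, and a shared protocol for the intestines. Except between LI and SI, tissue therefore cannot be told apart from isolation either.

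ATAC-seq uses a transposase that inserts adapters into DNA that is not wrapped in nucleosomes, so that the reads at a region grow with its accessibility. Promoters are open just upstream of a transcription start site (TSS), where general factors assemble. Distal open regions often are enhancers, where factors such as GATA, RUNX, and AP-1 proteins bind. ILC2s are tissue-resident lymphocytes that depend on GATA3 and RORα and secrete IL-5 and IL-13, and an active locus in such cells can hold several bound elements side by side.

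The table counts of a library summed to between 10282987 and 32797872. Levels are given as CPM, which are counts scaled to a fixed library total, with TMM factors,, and a region is named after the gene with the nearest TSS, a naming convention that says nothing about the target of a region. As a check of the sorted cells, each of 10 ILC2 marker genes had an open region at its TSS, with a summed level between 282 CPM (SI) and 384 CPM (pancreas). The summed level was 6.00 to 11.6 CPM at the 2 of 6 T cell genes with a region at their TSS, 4.64 to 17.3 CPM at 2 of 6 B cell genes, 9.06 to 21.7 CPM at 2 of 6 myeloid genes, 3.22 to 7.75 CPM at 1 of 3 epithelial genes, and 7.87 to 13.9 CPM at 1 of 3 endothelial genes. None of 4 mast cell and basophil, 5 NK cell and ILC1, or 4 ILC3 genes had a region at its TSS. The sums of the T, B, and myeloid genes were highest in SI, and their part in the SI results was not tested. Of the ILC2 markers, 6 of 10 had a broad region, and none of the other marker genes had one, against 10.0% of all genes with a region. The ILC2 markers had between 5 (*Il5*) and 53 (*Rora*) regions each and the other marker genes at most 10 (*Pecam1*). More regions give a gene more chances to have a broad one. Broad regions held between 6.25% and 7.56% of the counts of a library. A pair of satellite-rich regions at the start of chromosome 9 held between 3.85% (lung replicate 2) and 19.7% (LI replicate 1 and pancreas replicate 2) of those counts.

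The width is a product of peak calling on the same libraries, and the widths themselves are given here as a description. No region was narrower than 500 bp, 11820 of the 50039 regions in the table were exactly 500 bp wide, and the median was 532 bp. Broad regions had a median of 1157 bp and reached 2112 bp. Their widths formed a separate hump, since 574 regions measured 800 to 899 bp and 151 measured 900 to 999 bp, but 407 measured 1000 to 1099 bp and 446 measured 1100 to 1199 bp. In all, 1494 broad regions (90.8%) were at least 1000 bp wide and 70 were at least 1500 bp wide. The threshold thus lay near the low point between a mode at 500 bp and a mode above 1000 bp. The members just inside it were an intron of *4933405E24Rik* and the promoter of *Mir1932* within *Rnf213*, both 900 bp wide, and the promoter of *Bin1* with 901 bp. Just outside were the promoters of *C430049B03Rik* and *Arl6ip5* and an intron of *Map3k7*, each 899 bp wide. Mean levels were 15.9, 15.3, and 25.4 CPM for those inside and 8.53, 60.8, and 5.61 CPM for those outside.

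**Figure D1:**
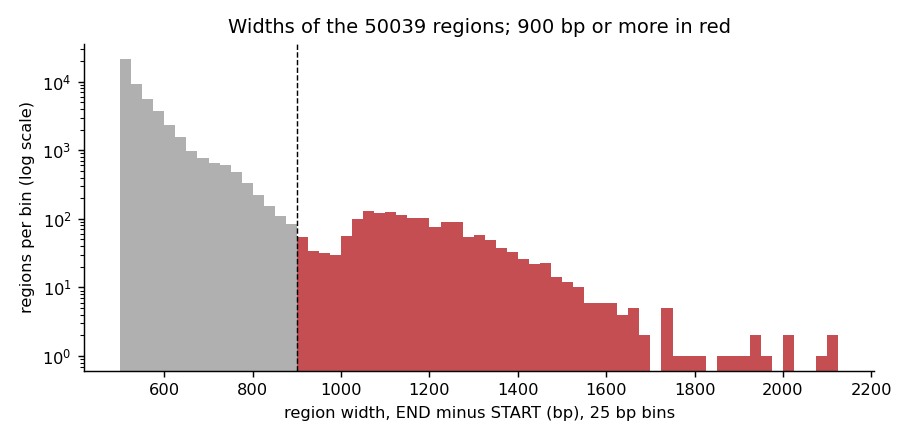
Number of regions (log axis) in 25 bp bins of region width for the 50039 regions of the table. Regions of 900 bp or more, in red, form a second hump with a low point at 900 to 999 bp, where 151 regions lie.

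Broad regions held start sites more often than the rest. A TSS lay inside 829 of 1645 broad regions (50.4%) and inside 21.3% of the narrower ones. These are shares per region, not per base, and a wider region can hold a TSS more often by its width alone. Of those 829, 403 were promoter regions by their centre, and 426 held a TSS while their centre lay outside the promoter window. These off-centre TSS regions made up 25.9% of broad and 4.74% of narrower regions. A further 15 broad regions overlapped a promoter window without holding a TSS, and 786 (47.8%) were free of promoters. Of the promoter-free regions, 418 lay in introns, 336 between genes, 23 in coding exons, and 9 in other exons, at a median of 19.8 kb from the nearest TSS. The share of promoters depended on the definition. It was 25.4% when the centre had to lie at most 1000 bp upstream or 100 bp downstream of a TSS, 53.1% with 1000 bp on both sides, and 52.2% when any overlap with the window counted.

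The TSS avoided the middle of a broad region. The region centre lay within 100 bp of the TSS in 10.5% of the broad regions that hold one and in 57.0% of the narrower regions. A TSS can lie farther from the centre of a wider region, so the width rule itself lowers this share. Within the broad regions alone, 19 had their centre 0 to 50 bp downstream of the TSS, and 83 had it in the 50 bp bin that starts 200 bp downstream. In 61.9% the centre lay more than 100 bp downstream of the TSS, within the transcribed part of the gene, and in 27.6% more than 100 bp upstream. The median displacement was 202 bp downstream, against 16 bp in narrower regions. Start sites of at least 2 genes lay in 132 broad regions (8.02%, against 2.40% of narrower ones), and 94 broad promoter regions (22.5%, against 10.4% of narrower promoters) were divergent, with genes leaving in both directions. These shares also grow with the width of a region and were not corrected for it.

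Matches of some motifs showed a like displacement in regions without any promoter. Matches were counted on both strands. The AP-1 motif was searched as TGANTCA. The letters of the GATA motif were AGATAA. For RUNX they were TGTGGTTT, and the CTCF core was searched too. In the 714 promoter-free regions of at least 1000 bp, AP-1 matches were densest 200 to 300 bp from the nearer edge, with 1.11 per kb, and fell to 0.27 per kb in the outermost 100 bp and 0.32 per kb at 400 to 500 bp. GATA matches reached 1.03 per kb at 200 to 300 bp, against 0.61 per kb at the edge and 0.76 per kb at 400 to 500 bp. RUNX and CTCF matches each reached 0.34 per kb at 200 to 300 bp. Other motifs did not peak there. IRF matches gave 0.25 per kb at the edge, 0.22 at 200 to 300 bp, and 0.25 at 400 to 500 bp. KLF/SP matches were densest at 100 to 200 bp, with 0.30 per kb. In regions of 500 to 550 bp, matches were counted from 200 bp from the edge to near the centre, a shorter stretch than the 200 to 300 bp of wide regions. The densities there were 1.36 per kb for AP-1, 1.02 for GATA, 0.38 for RUNX, and 0.81 for CTCF. Over these unlike stretches, GATA and RUNX densities were near each other in wide and minimal regions, while AP-1 and above all CTCF matches were less dense in wide ones. Part of such a difference can come from the shorter stretch around the centre of minimal regions. In wide regions with a promoter or TSS, the matches of the promoter motif KLF/SP (GGGCGGGG) were also less dense at the edge (0.58 per kb) than 300 to 400 bp from it (1.47 per kb). A match is a string of letters and does not show that a factor is bound.

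**Figure D2:**
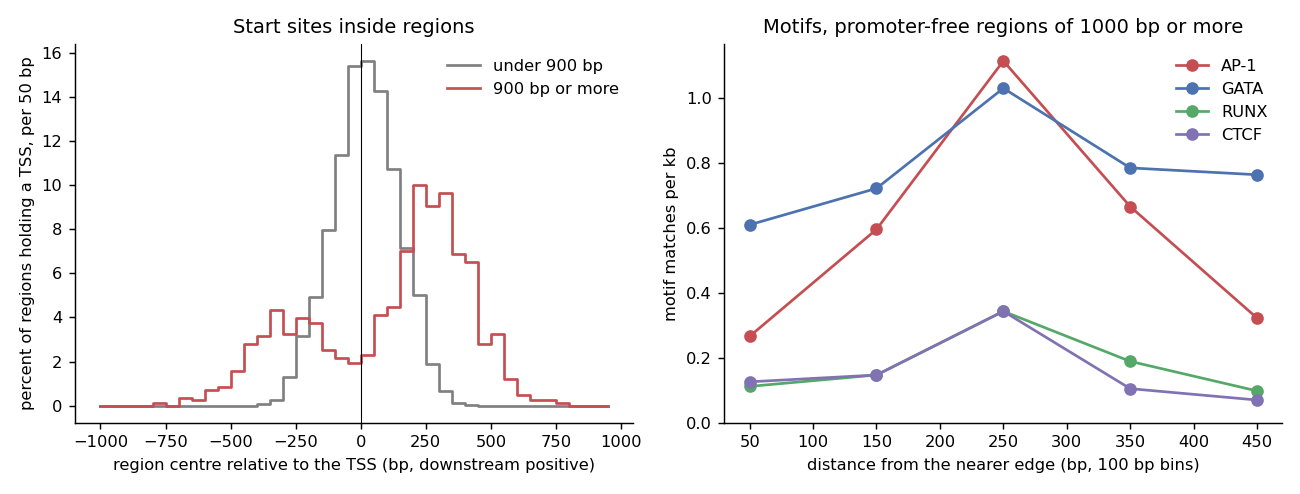
Left, position of the region centre relative to the TSS (bp, downstream positive) for the 829 broad and 10286 narrower regions that hold a TSS, as percent of each group per 50 bp. Right, motif matches per kb against the distance from the nearer edge in 714 promoter-free regions of at least 1000 bp. Narrower regions centre on the TSS and broad regions do not, and AP-1 and GATA matches peak 200 to 300 bp from the edge at 1.11 and 1.03 per kb.

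The central 500 bp of broad promoter-free regions held an AP-1 match in 18.8%, a GATA match in 28.6%, and a CTCF match in 3.18%, while the central 500 bp of all promoter-free regions did so in 28.3%, 30.2%, and 11.7%. Over their whole length, 42.2% of the broad promoter-free regions held an AP-1 match and 53.9% a GATA match. Broad promoters held an ETS match (CCGGAAG) in 11.5% of their central 500 bp and an NFY match (CCAATCAG) in 3.35%, against 21.6% and 7.25% of all promoters. The sequences below are the 150 bp with the most matches in regions that the results turn on, read on the plus strand of GRCm38 (mm10) from RefSeq. Capitals mark the matches. The first 4 were the leading members of a list of regions higher or lower in a tissue, and the other 4 lie at genes of ILC2 identity and activation.
*B930025P03Rik* region, chr8:10740376-10740525, higher in LI, with an AP-1 and a GATA match: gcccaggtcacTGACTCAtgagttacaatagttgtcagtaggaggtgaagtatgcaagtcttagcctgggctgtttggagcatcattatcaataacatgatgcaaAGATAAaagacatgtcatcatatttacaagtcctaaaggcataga
*Tpbg* promoter, chr9:85842110-85842259, higher in pancreas, with 2 AP-1 matches: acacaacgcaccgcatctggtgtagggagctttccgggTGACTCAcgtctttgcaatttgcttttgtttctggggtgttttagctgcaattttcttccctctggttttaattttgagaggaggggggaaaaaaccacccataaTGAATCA
*Sit1* region, chr4:43473318-43473467, lower in BM, with an E-box (CACGTG), a RORE, and an AP-1 match: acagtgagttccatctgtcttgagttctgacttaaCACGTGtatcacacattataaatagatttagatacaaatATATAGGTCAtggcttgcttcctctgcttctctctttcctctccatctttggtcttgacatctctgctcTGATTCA
*Fmn1* intron, chr2:113460121-113460270, lower in SI, with 2 GATA matches: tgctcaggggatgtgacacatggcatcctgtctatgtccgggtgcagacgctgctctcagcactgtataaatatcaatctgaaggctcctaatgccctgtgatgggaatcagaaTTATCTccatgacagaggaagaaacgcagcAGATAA
*Il1rl1* region, chr1:40413151-40413300, upstream of the ST2 gene, with an IRF and 2 AP-1 matches: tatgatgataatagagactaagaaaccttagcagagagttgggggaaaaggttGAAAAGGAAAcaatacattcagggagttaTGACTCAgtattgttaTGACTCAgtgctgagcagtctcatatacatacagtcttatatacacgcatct
*Rora* intron, chr9:69313125-69313274, with an NFY, a GATA, and a CTCF match: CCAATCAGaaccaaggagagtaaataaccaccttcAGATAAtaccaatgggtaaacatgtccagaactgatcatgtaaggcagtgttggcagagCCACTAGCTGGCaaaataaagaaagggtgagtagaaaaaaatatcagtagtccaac
*Gata3* region, chr2:9684620-9684769, with a RUNX match: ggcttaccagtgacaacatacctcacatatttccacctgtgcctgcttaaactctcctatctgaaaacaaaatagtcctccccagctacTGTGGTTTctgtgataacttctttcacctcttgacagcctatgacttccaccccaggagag
*Zfp36* region, chr7:28375653-28375802, higher in BM, with a KLF/SP and an ETS match: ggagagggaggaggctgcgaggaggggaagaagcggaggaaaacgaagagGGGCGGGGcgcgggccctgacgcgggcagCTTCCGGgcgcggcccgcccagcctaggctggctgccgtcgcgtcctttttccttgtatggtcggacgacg
Of the central 500 bp of all regions, 23.2% held an AP-1, 24.7% a GATA, 7.85% a RUNX, 7.25% an IRF, 10.1% a CTCF, 10.2% an E-box, 1.95% a RORE, 14.3% a KLF/SP, 8.92% an ETS, and 3.28% an NFY match.

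Broad regions held more counts than narrower ones, and among promoters they held fewer per base. The median level was 38.9 CPM in broad and 25.5 CPM in narrower promoters, but per kb of width it was 31.5 and 43.3 CPM. Promoter-free regions were higher in both units, with a median of 21.3 against 5.35 CPM and of 18.2 against 9.79 CPM per kb. Across widths, the median level per kb was 25.5 CPM at 600 to 699 bp, 20.1 at 900 to 999 bp, and 28.7 at 1200 to 1499 bp. The median GC content was 60.1% in broad promoters and 62.5% in narrower ones, and 48.0% and 47.5% in promoter-free regions. Another region lay within 1000 bp of 22.0% of the broad and 22.5% of the narrower regions.

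The widest promoter region (2112 bp) covered the TSS of *Ifngr2*, a chain of the interferon-γ receptor, followed by those of *Tob2* (2081 bp), an antiproliferative regulator, *Adora2a* (2006 bp), an adenosine receptor, *Zmynd11* (1931 bp), a chromatin reader, and *Tent5c* (1929 bp), a poly(A) polymerase. The widest distal regions lay in an intron of *Ppm1h* near *Mir8104* (2107 bp), at the off-centre TSS of *Plekha7* (2007 bp), 1202 bp from *Ifitm2* (1952 bp), in an intron of *Elmo1* (1907 bp), and near *Pkdcc* (1882 bp). *Adora2a* measured 31.5 and 24.0 CPM in BM, 38.5 and 50.2 in LI, 71.7 and 78.6 in pancreas, 41.3 and 41.0 in lung, and 51.1 and 36.4 in SI, with both pancreas libraries above all others. It differed among the tissues with an adjusted p of 0.000833 (edgeR's quasi-likelihood F test, Benjamini-Hochberg adjustment over all regions), while the other 9 had adjusted p-values between 0.0604 and 0.747. The most counts per kb, apart from regions with over 50% repeat-masked bases, were at the promoters of *Sp4* (174 CPM per kb), *Pdcd10* (161), and *Dazap2* (135) and at the distal regions in *Crlf2* (171), *Sfi1* (154), and *Tmem123* (150). The *Tmem123* region, distal by its centre, held the off-centre TSS of that gene. *Crlf2* encodes a chain of the receptor for TSLP, a cytokine that acts on ILC2s, and its region of 928 bp was centred in a coding exon. It measured 191 and 172 CPM in BM, 139 and 154 in LI, 167 and 176 in pancreas, 149 and 153 in lung, and 129 and 153 in SI, and no tissue stood apart from all others (adjusted p = 0.307, F test of edgeR). Among the 21 regions over 50% masked, the 2 on chromosome 9 led with 3927 and 1277 CPM per kb, and a region in an intron of *Tmem267* near *Ccl28* followed with 91.1.

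Broad regions differed among the 5 tissues about as often as other regions of their class. Of the 1645 members, 627 (38.1%) passed the F test at an adjusted p under 0.05, against 44.2% of all regions, and 506 of 1227 distal members (41.2%) passed against 47.3% of all distal regions. Promoters passed in 121 of 418 members (28.9%) and 30.9% of all promoters. Off-centre TSS regions passed in 105 of 426 (24.6%) and 21.7% of all such regions, and promoter-free regions in 397 of 786 (50.5%) and 49.5% of all. Off-centre TSS regions, which passed least often, made up a larger share of the broad than of the other distal regions. The median range between the highest and lowest tissue mean was 0.57 on the log2 scale in broad promoters and 0.65 in narrower ones, and 0.83 and 1.11 in promoter-free regions, while the median difference between replicates was 0.19 and 0.20 in promoters and 0.22 and 0.31 in promoter-free regions. Since broad regions held more counts, the shares were also set side by side within bands of mean levels. Among promoter-free regions, 48.1% of broad and 55.5% of narrower ones passed at 10 to 20 CPM, 49.2% and 52.1% at 20 to 40 CPM, and 49.3% and 46.1% at 40 to 80 CPM. Among promoters, the shares were 29.9% and 24.8%, 25% and 27.5%, and 26.3% and 35.1% in these bands, so the order of broad and narrower regions changed with the level. The share of broad promoters that passed was 13.4% without BM replicate 1, 19.1% without either LI library or without pancreas replicate 2, 17.0% without lung replicate 1, and 16.3% without lung replicate 2.

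By pairs of tissues, the most broad regions differed between BM and LI and the fewest between LI and pancreas. Levels were higher in BM than in LI in 212 members (12.9%, against 12.6% of all regions) and lower in 282 (17.1%, against 18.3%), at an adjusted p under 0.05. They were higher in LI than in pancreas in 30 members (1.82%, against 2.01%) and lower in 10 (0.608%, against 1.25%). Between lung and SI, 157 members were higher in lung (9.54%, against 9.86%) and 128 were lower (7.78%, against 11.1%). The median log2 difference of BM minus LI was 0.16 over broad promoters and 0.31 over all promoters, and −0.04 over broad distal and −0.14 over all distal regions.

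**Figure D3:**
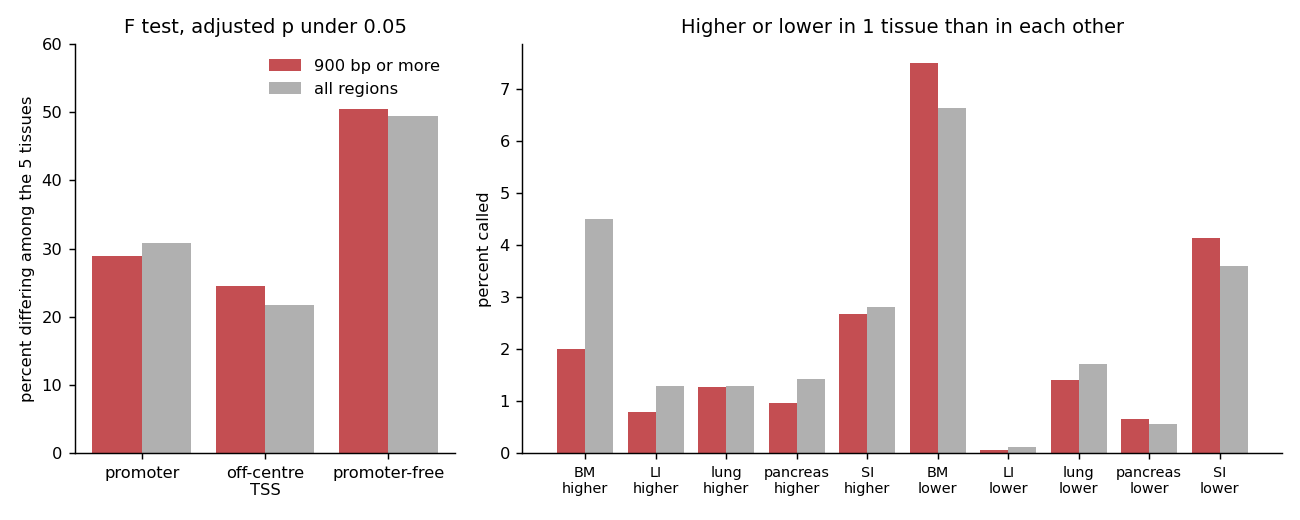
Percent of broad regions (red) and of all regions (grey) that differed among the 5 tissues by class (left), and that were higher or lower in 1 tissue than in each of the other 4 (right). Broad regions lie near all regions in most bars, and fewer broad regions were higher in BM (2.01% against 4.5%).

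Regions were then taken as specific to a tissue when they were higher, or lower, there than in each of the other 4 tissues, where each of the 4 contrasts of edgeR's quasi-likelihood test had to reach an unadjusted p under 0.05. Such lists share control tissues and are not independent of each other. Together, 322 broad regions stood in at least 1 list. In BM, 33 broad regions (2.01%, against 4.5% of all regions) were higher and 123 (7.48%, against 6.63%) were lower. Of the 33, 14 were promoters, which is 3.35% of broad promoters against 7.15% of all promoters. Of the 123, 100 were promoter-free, which is 12.7% of such broad regions against 8.32% of all. Broad promoter-free regions also had a higher median level than all promoter-free regions (21.3 against 5.47 CPM). The shares in this list were not compared within bands of level. AP-1 matches lay in 59.0% of those 100 regions and GATA matches in 64.0%, against 42.2% and 53.9% of all broad promoter-free regions. In the 13 promoter-free regions higher in BM, the shares were 15.4% for AP-1 and 69.2% for GATA, so a raised GATA share was not particular to regions lower in BM. The BM counts depended on the scaling. They were 8 higher and 144 lower with library size alone, 47 and 114 in DESeq2, and 91 and 86 after trends with GC content and width had been removed. The number higher in BM was 12 without BM replicate 1, 88 without BM replicate 2, 12 and 15 without lung replicates 1 and 2, and 50 without SI replicate 2.

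The leading regions higher in BM were a pair between genes and a region near *Zfp36*. The region 84.0 kb upstream of *Klf9*, which encodes a Krüppel-like factor, held 19.0 and 10.7 CPM in BM and between 3.83 and 6.47 CPM in the other 8 libraries, so the BM libraries stood apart from each other and above the rest (log2 difference to the nearest tissue, lung, 1.30 ± 0.30 SE, adjusted p at most 0.00527). A region 26.0 kb downstream of *1700029F12Rik* held 19.4 and 11.2 CPM in BM and 4.19 to 8.72 CPM elsewhere (1.10 ± 0.30, adjusted p at most 0.012). *Zfp36* encodes tristetraprolin, which destabilises cytokine mRNAs, and is described with the activation-induced genes. Regions lower in BM showed larger differences. The one 10.1 kb from *Sit1*, an adaptor of lymphocyte receptor signalling, held 3.23 and 1.98 CPM in BM, 16.5 and 19.4 in LI, 12.3 and 19.4 in pancreas, 11.6 and 18.6 in lung, and 18.3 and 19.0 in SI, with no overlap of BM with the others (log2 difference to lung −2.54 ± 0.32, adjusted p at most 5.12e-05). The region 120 kb upstream of *Jag1*, a Notch ligand, held 1.17 and 2.48 CPM in BM, 23.0 and 41.1 in LI, 8.89 and 10.0 in pancreas, 17.1 and 20.0 in lung, and 9.97 and 7.59 in SI. It was lowest in BM and highest in LI, with a log2 difference of −2.25 ± 0.35 between BM and the nearest tissue, SI (adjusted p at most 0.000254).

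In LI, 13 broad regions (0.79%, against 1.3% of all regions) were higher and 1 (0.0608%, against 0.132%) was lower, and 12 of the 13 were promoter-free. The region 142 kb downstream of *B930025P03Rik* held 42.2 and 40.8 CPM in LI, 3.13 and 3.13 in BM, 13.8 and 17.9 in pancreas, 7.21 and 7.26 in lung, and 9.20 and 18.4 in SI. Both LI libraries were above all others, with a log2 difference to pancreas of 1.39 ± 0.28 (adjusted p at most 0.0115, edgeR). An intron of *Ninj2*, an adhesion protein, held 45.2 and 43.1 CPM in LI, 19.4 and 25.7 in pancreas, and at most 17.4 in the other tissues (0.98 ± 0.24, adjusted p at most 0.0381). An intron of *Fam180a* held 12 and 23.8 CPM in LI and 5.14 to 9.84 elsewhere, and its largest adjusted p was 0.0519. The lone region lower in LI, near the amino acid transporter gene *Slc38a8*, held 11.2 and 9.73 CPM in LI and 17.4 to 29.9 CPM elsewhere (−0.84 ± 0.21 to lung, adjusted p at most 0.0168). The number higher in LI was 7 without LI replicate 2 and 22 without SI replicate 1. The number lower in LI was 2 and 3 without BM replicates 1 and 2, 3 and 5 without LI replicates 1 and 2, and 5 and 3 without SI replicates 1 and 2. The split of 13 higher and 1 lower became 12 and 3 with RLE size factors, 13 and 4 in DESeq2, and 5 and 9 after the removal of GC and width trends.

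In lung, 21 broad regions (1.28%, against 1.3%) were higher and 23 (1.4%, against 1.72%) were lower. *Kcnk7*, a potassium channel subunit, led with an off-centre TSS region that held 49.2 and 64.3 CPM in lung, 24.9 and 17.8 in BM, 18 and 18.2 in LI, 23.2 and 20.2 in pancreas, and 14.1 and 16.1 in SI. Both lung libraries were above all others (log2 difference to pancreas 1.39 ± 0.22, adjusted p at most 0.00246). The promoter of *Ache*, which encodes acetylcholinesterase, held 23.8 and 32.6 CPM in lung and 10.5 to 16.4 elsewhere (0.93 ± 0.25, adjusted p at most 0.0321). An intron of the transcription factor gene *Hlf* held 29.3 and 46.0 CPM in lung and 8.95 to 23.6 elsewhere, and its largest adjusted p was 0.0813. Among regions lower in lung, the TSS region of *Fads2*, a fatty acid desaturase, held 2.86 and 2.46 CPM in lung, 24.6 and 16.8 in BM, 10.5 and 4.21 in LI, 6.30 and 7.33 in pancreas, and 35.2 and 7.59 in SI. The SI and LI pairs were far apart and the largest adjusted p was 0.165. The TSS region of *Tns3*, a focal adhesion protein, held 3.37 and 4.42 CPM in lung and 6.41 to 18.4 elsewhere (−1.27 ± 0.37 to LI, adjusted p at most 0.0487). The number higher in lung was 13 without BM replicate 2, 9 without LI replicate 1, 3 without lung replicate 2, and 12 without pancreas replicate 1. The number lower was 10 without lung replicate 2 and 14 without pancreas replicate 2. With library size alone 39 were higher and 9 lower.

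In pancreas, 16 broad regions (0.973%, against 1.43%) were higher and 11 (0.669%, against 0.572%) were lower. None of these passed an adjusted p under 0.05 in all 4 contrasts of edgeR's test, in either direction. The promoter of *Tpbg*, a membrane glycoprotein that inhibits Wnt signalling, held 15.9 and 12.6 CPM in pancreas, 8.72 and 7.12 in LI, 6.60 and 6.41 in SI, 3.25 and 4.14 in lung, and 1.96 and 2.76 in BM. Both pancreas libraries were above all others, and the largest adjusted p was 0.119. A region 44.8 kb from *H2al1a* held 10.4 and 11.6 CPM in pancreas and 1.64 to 7.41 elsewhere, and an intron of *Sh3bgrl2* held 30.5 and 28.7 CPM in pancreas and 5.97 to 18.6 elsewhere, with largest adjusted p-values of 0.131 and 0.0531. The leading regions lower in pancreas lay in introns of *Mast4*, a kinase, and of *Sncaip*, a partner of α-synuclein. The *Mast4* region held 4.59 and 3.56 CPM in pancreas and 4.79 to 14.1 elsewhere, and the *Sncaip* region held 4.24 and 6.69 CPM in pancreas and 9.11 to 26.2 elsewhere. The number higher was 9 without LI replicate 2, 8 and 10 without lung replicates 1 and 2, and 4 without pancreas replicate 2. The number lower was 7 without BM replicate 1, 5 without LI replicate 2, 3 without lung replicate 2, and 23 without pancreas replicate 1. With library size alone 6 were higher and 16 lower, and after the removal of GC and width trends 12 were higher and 15 lower.

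In SI, 44 broad regions (2.67%, against 2.8%) were higher and 68 (4.13%, against 3.59%) were lower. Off-centre TSS regions gave 13 of the 44, which is 3.05% of such broad regions against 1.1% of all such regions, and promoter-free regions gave 52 of the 68, which is 6.62% against 4.42%. As in BM, these shares were not compared within bands of level. GATA matches lay in 73.1% of those 52 regions and AP-1 matches in 57.7%, against 53.9% and 42.2% of all broad promoter-free regions, and in 83.3% and 75% of the 12 promoter-free regions higher in LI. The 26 promoter-free regions higher in SI gave 50.0% and 34.6%. The lists of lung and pancreas were small, with 14 promoter-free regions higher and 16 lower in lung, and 14 higher and 7 lower in pancreas. GATA matches lay in 8 of the 14 regions higher in lung and in 4 of the 7 lower in pancreas. Both shares were near the 53.9% of all broad promoter-free regions. GATA and AP-1 shares were 57.1% and 64.3% higher in lung, 62.5% and 31.2% lower in lung, 78.6% and 42.9% higher in pancreas, and 57.1% and 57.1% lower in pancreas. An intron of *Mras*, a Ras-family GTPase, held 29.1 and 36.4 CPM in SI, 11.2 and 11.5 in LI, and 5.87 to 8.95 in the other tissues (log2 difference to LI 1.53 ± 0.24, adjusted p at most 0.00104). An intron of *Dock8*, an activator of CDC42, held 10.1 and 7.56 CPM in SI and 2.12 to 4.34 elsewhere (1.26 ± 0.35, adjusted p at most 0.035). The TSS region of *C030013C21Rik*, within the myosin gene *Myo1d*, held 35.7 and 14.5 CPM in SI and 4.50 to 11.3 elsewhere (1.19 ± 0.33, adjusted p at most 0.0333), with the SI libraries far apart. The largest difference to the nearest tissue in any of these lists was at an intron of *Fmn1*, a formin that builds actin filaments. It held 1.93 and 2.06 CPM in SI, 15.4 and 13.7 in LI, 21.7 and 27.1 in BM, 42.7 and 44.5 in lung, and 51.2 and 50.7 in pancreas. The 5 pairs of libraries did not overlap, and the log2 difference of SI to LI was −2.86 ± 0.23 (adjusted p at most 6.24e-06). A region 7.24 kb upstream of *Mylk2*, a myosin light chain kinase, held 11.1 and 17.0 CPM in SI and 49.8 to 87.7 elsewhere (−1.84 ± 0.21, adjusted p at most 9.67e-05). The number higher in SI was 24 without BM replicate 2, 29 and 16 without LI replicates 1 and 2, 24 without lung replicate 1, 28 without pancreas replicate 1, and 14 and 99 without SI replicates 1 and 2. With library size alone 63 were higher and 30 lower.

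**Figure D4:**
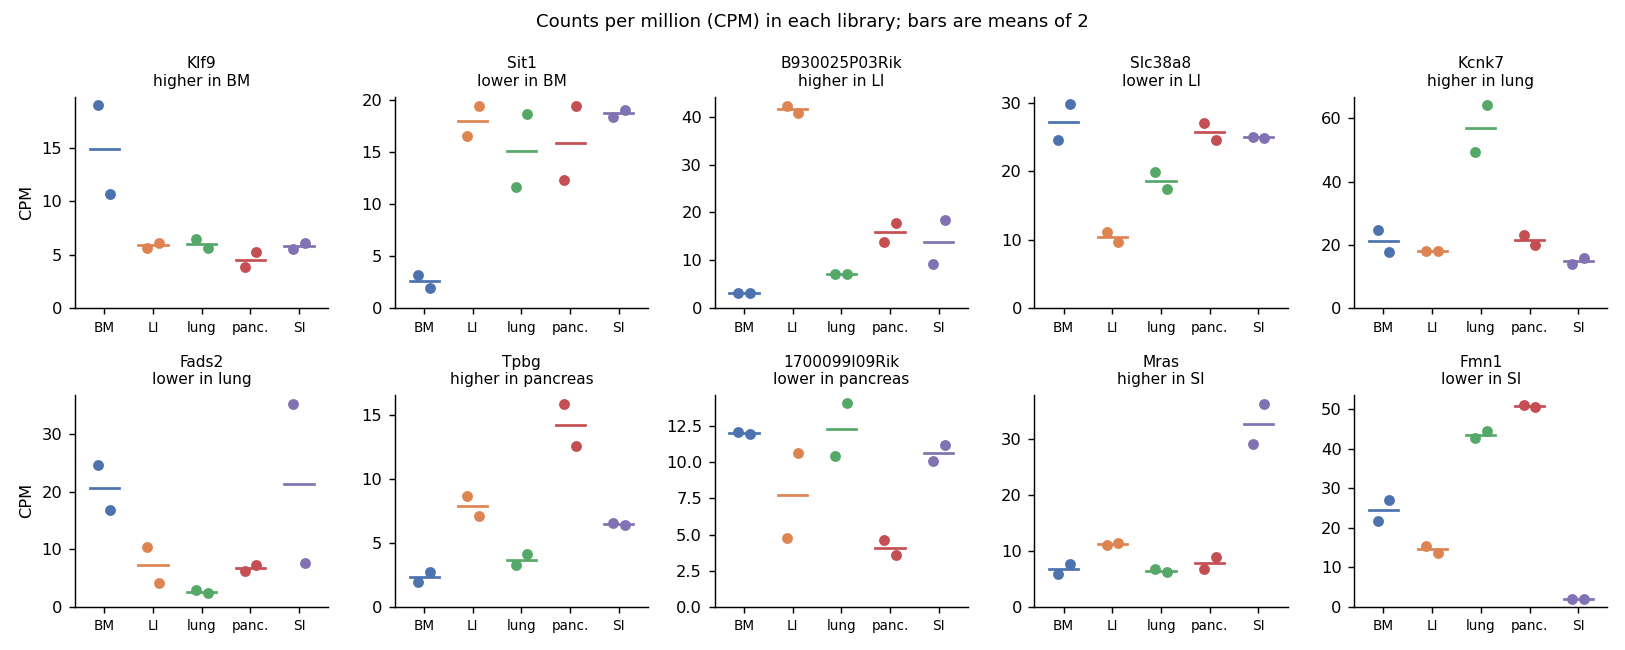
Level (CPM) in each library of the leading region higher and lower in each tissue. Points are libraries and bars the means of 2. *Fmn1* is lowest in SI at 1.93 and 2.06 CPM, and *B930025P03Rik* is highest in LI at 42.2 and 40.8 CPM.

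Other broad regions were alike in the 5 tissues. With mean levels of at least 20 CPM, the smallest ranges among promoters were 0.08 on the log2 scale at *Mfge8*, a bridging protein for the uptake of dying cells, 0.13 at *Mir1956* within *Eif4e*, which encodes the mRNA cap-binding protein, and 0.15 at *Lats1*, a Hippo pathway kinase. *Mfge8* held between 27.7 and 31.6 CPM in the 10 libraries. The smallest ranges among distal regions were 0.08 at the TSS of *Rasa2*, 0.09 in an intron of *Prkcq*, a protein kinase C, and 0.11 in an intron of *Hivep2*. The *Hivep2* intron held between 94.1 and 132 CPM.

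The genes of ILC2 biology were taken from 5 lists, and their shares are given beside that of all genes as a description. Of 18048 genes with a region at their TSS, inside them, or nearest to them, 1805 (10.0%) had a broad one. That share was 11 of 33 transcription factors of ILC2s (33.3%), 7 of 26 surface receptors (26.9%), 5 of 20 effectors (25%), 12 of 38 activation-induced genes (31.6%), and 4 of 21 homing and residency genes (19.0%). Such genes also had many regions in all, for instance 542 at the 33 transcription factor genes, which gives each more chances to have a broad one. In all, 133 genes had 2 broad regions, 16 had 3, and *Hivep2* and *Inpp4b* had 4.

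The transcription factors had 16 broad regions, most of them promoter-free. Of these 16, 6 (37.5%) differed among the tissues, against 38.1% of all broad and 50.5% of the broad promoter-free regions. *Gata3*, which specifies ILC2s, had 1, at 194 kb downstream of its TSS. It held 28.9 and 34.1 CPM in BM, 23.2 and 38.0 in LI, 29.4 and 29.3 in pancreas, 43.8 and 45.5 in lung, and 22.5 and 17.1 in SI. Lung was above and SI below every other library, and lung exceeded SI by 1.17 ± 0.23 on the log2 scale (adjusted p = 0.00173, edgeR). *Rora*, which encodes the nuclear receptor RORα, had 3 in its introns among 53 regions. The one 23.8 kb from its TSS held 18.2 and 16.3 CPM in BM, 51.3 and 55.5 in LI, 43.4 and 37.1 in pancreas, 21.0 and 26.6 in lung, and 45.5 and 53.3 in SI, with BM below all others (LI minus BM 1.63 ± 0.20, adjusted p = 3.17e-05, edgeR). The largest of the *Rora* regions by count held 90.0 to 147 CPM and did not pass (F test, adjusted p = 0.454). *Runx3*, a Runt-family factor, had a region 40.3 kb upstream with 80.2 and 102 CPM in LI, 73.3 and 105 in SI, 55.1 and 56.7 in BM, 30.3 and 35.9 in lung, and 27.1 and 26.1 in pancreas. Both intestinal tissues were thus above the rest (LI minus pancreas 1.77 ± 0.21, adjusted p = 0.000378, edgeR). A region 33.1 kb from *Irf1*, an interferon regulatory factor, ranged from 29.4 CPM in BM to 62.4 CPM in LI (adjusted p = 0.0339, F test). Regions in *Satb1* and *Ikzf2*, which encode a chromatin organiser and Helios, passed with F-test adjusted p-values of 0.00559 and 0.0491, while the other broad region of each gene did not (0.172 and 0.0567). In 16 refits with another setting or without a library, the contrast of the highest and lowest tissue lost its call in 5 for this *Satb1* region, in 4 for this *Ikzf2* region, and in 3 for *Irf1*, among them the refits without either lung or either pancreas library (*Satb1*), without LI replicate 2 or SI replicate 1 (*Ikzf2*), and without BM replicate 2 or LI replicate 1 (*Irf1*). The broad regions at *Nfil3*, *Ahr*, *Pparg*, *Stat6*, and *Ikzf3* had F-test adjusted p-values between 0.09 and 0.409.

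Surface receptors had 7 broad regions, all promoter-free, and 5 (71.4%) differed among the tissues, against 50.5% of the broad promoter-free regions. *Il1rl1*, which encodes the IL-33 receptor ST2 used in 4 of the 5 gates, had a region 16.7 kb upstream with 4.65 and 5.34 CPM in BM, 14.2 and 14.6 in LI, 24.1 and 23.8 in pancreas, 15.7 and 20.9 in lung, and 3.90 and 4.98 in SI. BM and SI overlapped and lay below the other tissues, and pancreas exceeded SI by 2.42 ± 0.25 on the log2 scale (adjusted p = 7.72e-06, edgeR). This broad region held 4.28% of the counts of the 19 regions of *Il1rl1*. At the TSS of the gene, the order of tissues was another. The summed level of the 2 regions there was lowest for SI (4.04 CPM), followed by LI (11.4 CPM) and BM (21.8 CPM). Pancreas (35.4 CPM) and lung (30.4 CPM) were highest. BM cells were gated on ST2 and SI cells were not, and the part of the gate in these levels was not tested. *Icos*, a costimulatory receptor, had a region 124 kb downstream with 34.0 and 25.5 CPM in BM, 18.7 and 21.2 in LI, 28.2 and 26.4 in pancreas, 23.8 and 17.8 in lung, and 8.91 and 15.7 in SI, so that SI lay below every other library (BM minus SI 1.27 ± 0.26, adjusted p = 0.0021). The intron of *Vipr2*, a receptor of the neuropeptide VIP, held 18.2 and 22.7 CPM in lung and 9.77 to 14.3 elsewhere (lung minus SI 0.85 ± 0.24, adjusted p = 0.0181). A region 51.3 kb upstream of *Il7r*, the IL-7 receptor, held 84.8 and 77.1 CPM in BM and 47.0 and 47.8 in SI (0.77 ± 0.21, adjusted p = 0.0131). Lung replicate 2 (91.9 CPM) was above both BM libraries, and LI replicate 1 (49.6 CPM) was near SI. The contrast of BM and SI lost its call in 2 of 16 refits, among them that without BM replicate 1. A region 45.3 kb upstream of the checkpoint receptor gene *Tigit* was by tissue mean highest in pancreas (44.7 and 45.9 CPM) and lowest in lung (25.1 and 30.1 CPM), with an F-test adjusted p of 0.0104. LI replicate 2 (46.3 CPM) was above both pancreas libraries, and BM (29.5 and 27.6 CPM) overlapped lung. The contrast of pancreas and lung lost its call in 6 of 16 refits, among them those without either library of these tissues, and that of *Vipr2* in 3, among them those without lung replicate 2 and SI replicate 1. *Crlf2* and *Tgfbr2* did not pass.

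Of 5 broad regions at effector genes, 1 (20.0%) differed among the tissues, against 38.1% of all broad regions. It was the promoter of *Arg1*, the arginase of ILC2s, with 17.0 and 21.2 CPM in SI, 30.7 and 38.3 in LI, 37.2 and 40.0 in pancreas, 39.2 and 50.0 in BM, and 38.2 and 55.1 in lung. SI lay below all other libraries (lung minus SI 1.29 ± 0.22, adjusted p = 0.000667). The region 16.7 kb downstream of *Il5*, the signature cytokine gene, held 17.3 to 29.5 CPM in the 10 libraries, and its 2 BM libraries spanned that whole range (F test, adjusted p = 0.562). The regions at *Tnfsf11* (RANKL), *Calca* (CGRP), and *Lta* (lymphotoxin-α) had F-test adjusted p-values of 0.07, 0.3, and 0.721.

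Activation-induced genes had 13 broad regions, and 10 (76.9%) differed among the tissues, against 38.1% of all broad and 50.5% of the broad promoter-free regions. They encode early transcription factors and feedback regulators that cells switch on soon after stimulation. *Zfp36* had a broad region on either side. The one 3.26 kb downstream held 164 and 167 CPM in BM, 57.9 and 86.1 in LI, 67.7 and 42.1 in pancreas, 67.4 and 83.8 in lung, and 98.3 and 57.6 in SI, with both BM libraries above all others (BM minus pancreas 1.59 ± 0.27, adjusted p = 0.000674). The one 3.33 kb upstream held 261 and 286 CPM in BM and 144 to 232 elsewhere (BM minus SI 0.85 ± 0.18, adjusted p = 0.00292). A region 12 kb downstream of *Tnfaip3*, the NF-κB inhibitor A20, held 109 and 114 CPM in BM and 36.8 to 91.3 elsewhere (BM minus pancreas 1.35 ± 0.30, adjusted p = 0.00462), with 68.0% of its bases repeat-masked, and this contrast lost its call without pancreas replicate 2. The regions 2.49 kb downstream of *Junb*, 14.5 kb upstream of *Btg2*, and at the promoter of *Pim1* were also in the list higher in BM. That list rests on unadjusted p-values. *Junb* held 199 and 148 CPM in BM and 87.7 to 133 elsewhere, *Btg2* 135 and 141 against 77.2 to 115, and *Pim1* 190 and 136 against 86.4 to 127. The contrasts of BM with pancreas at *Junb* and of BM with LI at *Pim1* each lost their call in 2 of 16 refits. Other members were lowest in BM by tissue mean. The region 27.3 kb from *Nfkbia*, which encodes IκBα, held 18.2 and 16.7 CPM in BM and 49.7 and 35.0 in SI (SI minus BM 1.28 ± 0.21, adjusted p = 0.000312), and the one 72.4 kb upstream of *Rgs2* held 68.1 and 82.2 CPM in BM and 187 and 160 in pancreas (1.21 ± 0.22, adjusted p = 0.00121). At *Rgs2*, SI replicate 1 (70.8 CPM) lay between the BM libraries. By tissue mean, the *Zfp36l1* region was highest in LI at 24.7 and 41.8 CPM and lowest in lung at 15.8 and 15.5 CPM, a contrast that lost its call in 4 of 16 refits, among them those without LI replicate 2 and without either lung library. *Nr4a2* was lower in SI than in each other tissue, at 20.8 and 17.0 CPM. *Fosb*, *Nr4a1*, and *Bcl2l1* did not pass.

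Homing and residency genes had 4 broad regions, of which 3 differed, against 38.1% of all broad and 50.5% of the broad promoter-free regions. All but the *Ccr8* promoter were promoter-free. A region 79.8 kb upstream of *Cd44*, a hyaluronan receptor, held 36.9 and 34.9 CPM in BM, 81.9 and 100.2 in LI, 107 and 107 in pancreas, 77.4 and 95.5 in lung, and 47.5 and 59.5 in SI. BM was below every other library (pancreas minus BM 1.57 ± 0.20, adjusted p = 4.08e-05). The promoter of the chemokine receptor gene *Ccr8* held 82.3% of the counts of the 3 regions of that gene, with 53.5 and 66.4 CPM in SI and 98.7 to 142 elsewhere (pancreas minus SI 1.13 ± 0.19, adjusted p = 0.000522). An intron of *Itgb2*, the integrin β2 chain, ranged from 14.4 CPM in BM to 30.7 CPM in lung (F test, adjusted p = 0.0316), and the contrast of these tissues lost its call in 4 of 16 refits, among them those without either BM library and without lung replicate 2. The region 72.7 kb from *S1pr1*, the receptor for egress from tissues, held 21.1 and 16.2 CPM in BM and 10.6 to 14.6 elsewhere, with an F-test adjusted p of 0.0549.

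**Figure D5:**
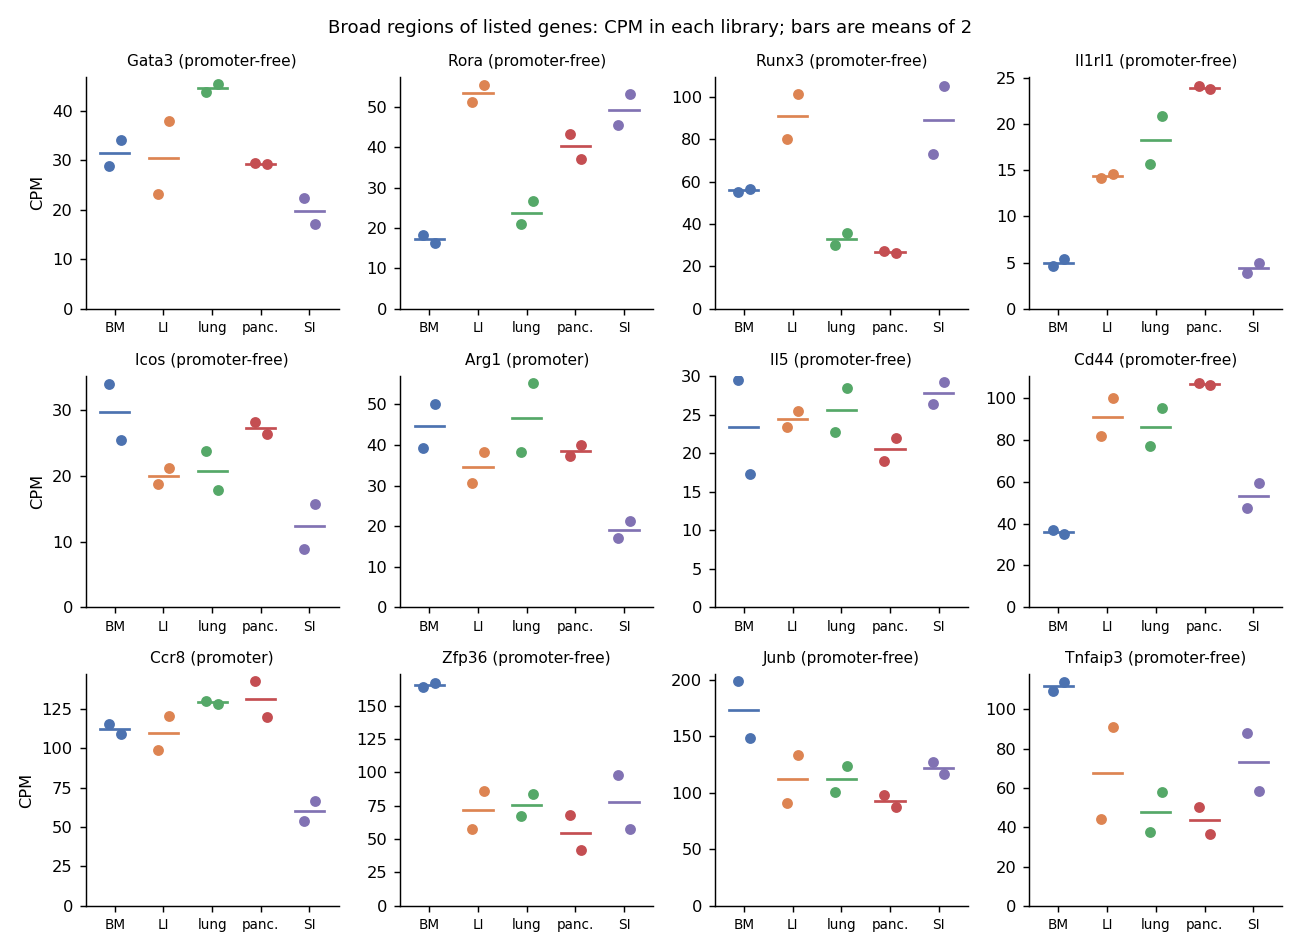
Level (CPM) in each library of broad regions at 12 listed genes, with the means of 2 libraries as bars. *Il1rl1* is lowest in BM and SI at 3.90 to 5.34 CPM, *Arg1* and *Ccr8* are lowest in SI, and *Zfp36* and *Tnfaip3* are highest in BM.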

How the data were processed

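ATAC-seq counts of 10 libraries were analysed. The authors mapped reads to mm10 with Bowtie2 2.2.9, kept uniquely mapped reads, called peaks per library with MACS2 2.1.1, retained those that both libraries of a tissue shared, joined them over tissues with HOMER, and deposited raw read counts per merged region, made with bedtools. Removal of duplicate or mitochondrial reads and a shift for the transposase are not given in the sources used here. PCR copies are not independent molecules, so counting error alone would understate the spread. The members, gene lists, and motifs were chosen with earlier results of these data known.

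From the counts, edgeR 4.0.16 (R 4.3.3) was fitted to all 49981 regions that hold a count, with TMM scaling and glmQLFit. Tissue was its only term, glmQLFTest gave the tests, and p-values were adjusted over all regions after Benjamini and Hochberg. Adjusted p-values of single contrasts are also from edgeR. The fit was tested on simulated data. With 2 pools per tissue, p-values measure the spread between pools. CPM use TMM, and log2 levels a prior count of 2. DESeq2 1.42.0 and the settings in the closing section were alternatives. Classes and nearest genes came from curated RefSeq transcripts of GRCm38, whose chromosomes hold every region. The coordinates of the table, read as starting at 1, may be off by 1 base.

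Regions named are the 5 widest and the 3 with most counts per kb of each class (and 3 over 50% masked), for each tissue the 3 with the largest smallest log2 difference among those higher and the 2 most extreme among those lower, the 3 with the smallest range of tissue means of each class at a mean of at least 20 CPM, the 3 on either side of 900 bp, and those of listed genes, up to 6 genes a list with values.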

Additional observations from a re-analysis of the deposited data

How the results depend on the processing

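Values here are percentages of the broad regions of the class named, or of all broad regions for the lists of a tissue. With each library left out in turn, the share differing among tissues lay between 13.4 and 39.7 in promoters and 29.7 and 51.5 in distal regions. The share higher ranged over 0.729 to 5.35 (BM), 0.426 to 1.34 (LI), 0.182 to 1.76 (lung), 0.243 to 1.22 (pancreas), and 0.851 to 6.02 (SI), and the share lower over 5.23 to 7.84 (BM), 0.0608 to 0.304 (LI), 0.608 to 1.7 (lung), 0.182 to 1.4 (pancreas), and 2.98 to 5.11 (SI). In these fits the lone library of a tissue is taken to vary like the others. With library size alone, the shares higher were 0.486 in BM, 0.426 in LI, 2.37 in lung, and 0.365 in pancreas, and those lower 0.547 in lung and 1.82 in SI. This scaling moved the median of all regions by up to 0.25 on the log2 scale (lung minus pancreas). After removal of GC and width trends, which moved it by up to 0.21 (BM minus LI), 5.53 were higher in BM and 0.304 in LI, and 0.547 were lower in LI. A log2 difference over 1 as well left 8.85 of promoters and 27.2 of distal regions, 0.243 (BM), 0.0608 (LI), 0.0608 (lung), 0.0 (pancreas), and 0.304 (SI) higher, and 2.55 (BM), 0.0 (LI), 0.243 (lung), 0.0 (pancreas), and 0.669 (SI) lower. With adjusted p-values in each contrast, 0.547 (BM), 0.182 (LI), 0.182 (lung), 0.0 (pancreas), and 0.486 (SI) were higher and 4.8 (BM), 0.365 (lung), 0.0 (pancreas), and 2.01 (SI) lower. The 1 region lower in LI (0.0608) became 0.182 with RLE, 0.243 in DESeq2, 0.122 on thinned counts, and 0.122 with the replicate block. The promoter share of 25.4 became 53.1 with 1000 bp on both sides and 52.2 by overlap. The cause of these changes was not tested, beyond the smaller number of regions that stricter rules leave.

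No label ties the replicate numbers to a shared batch, and the replicate differences of 2 tissues correlated at −0.22 to 0.20 over all regions, above 0.1 in 4 of 10 pairs (BM with LI, and LI, lung, and SI among themselves), so the numbers were not taken to pair the libraries. With the replicate block, 26.8 of promoters and 40.7 of distal regions differed. Distal regions free of promoters (50.5) and the members without regions over 50% masked were chosen after seeing the data. Without leaving out a library, 114 values stayed within 1.5 times of the reported one (or within its counting interval, for the promoter share) and the 36 above did not. Of the named regions, only those specific to a tissue and those of listed genes were followed through the refits, and none of these changed direction. Of the refits of the named regions specific to a tissue, 141 kept the call and 3 lost it under another setting, and 224 kept and 16 lost it without a library. For the regions of listed genes, 16 contrasts of the highest and lowest tissue lost their call under another setting and 45 without a library.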

Other observations

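Repeats made up part of the broad regions. Among the 1645, 21 had over 50% repeat-masked bases, and 20 of these were promoter-free. Of the 21, 15 differed among the tissues by the F test of edgeR, against 38.1% of all broad and 50.5% of the broad promoter-free regions. Replicates of a tissue were far apart at several of them. The region at chr9:3000214-3001481 held 10936 and 2211 CPM in the LI libraries, 5786 and 11180 in pancreas, 3777 and 4567 in BM, 2907 and 2082 in lung, and 3774 and 2537 in SI. A region near *Gm6194* on chromosome 3 showed a like order, with 70.7 and 22.0 CPM in LI and 40.0 and 124 in pancreas. LI replicate 1 and pancreas replicate 2, the libraries with the highest values, also had the fewest counts in all, with 13290901 and 10282987. The role of depth was not tested.

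Broad regions were spread over the chromosomes, from 2.24% of the regions on chromosome X to 3.77% on chromosome 19, and 3 of 53 regions (5.66%) on chromosome Y.

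Genes with 3 or more broad regions included *Foxp1*, a transcription factor of lymphocytes, with 3 of 49 regions, *Inpp4b*, a phosphoinositide phosphatase, with 4 of 48, and *Tnfrsf1b*, a TNF receptor, with 3 of 12. Of these broad regions, 2 of 3 differed among the tissues at *Foxp1*, 1 of 4 at *Inpp4b*, and 1 of 3 at *Tnfrsf1b*, against 38.1% of all broad regions. The range over genes with 3 was from 0 of 3, at *Atxn7l1* and *4930523C07Rik*, to 3 of 3, at *Fam107b*.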
